A study of Mus musculus with 3 samples.

Results

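HBO1 ChIP-seq peaks were described at 10 genes of the Wnt pathway in mouse ESCs grown with an inhibitor of the kinase GSK3. The genes were Axin2, Lef1, Tcf7, Tcf7l1, Ctnnb1, Gsk3a, Gsk3b, Apc, Sp5 and Cdx1, chosen by name because the inhibitor acts on their pathway, and they are 10 of 21938 protein-coding genes. All were found in the GENCODE vM21 annotation of mm10, the build of the peaks, and their 51 distinct transcription start sites (TSSs), their gene bodies and the 50 kb on either side were searched. In these windows lay 47 of the 13823 HBO1 peaks of the deposited list.

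HBO1 ChIP was done on 2 samples of Oct1 deficient ESCs, and 1 sample of the same cells was sequenced as input, without immunoprecipitation. These cells lack Oct1, the Oct4 paralog encoded by Pou2f1. Every sample was grown with 3 µM of the GSK3 inhibitor CHIR99021, with 1 µM of the MEK inhibitor PD0325901 (PD03259010 in the labels) and with ascorbic acid, and was fixed with 1% formaldehyde. No sample grown without CHIR99021 was analysed here, so an effect of the inhibitor on these peaks cannot be read from the data. The ESCs were kept on fibroblast feeders, which were removed 1 passage before the experiments. The study's methods describe the ChIP samples as biological repeats, and whether the line is a single clone is not given in the sources used here. The antibody of the second ChIP sample is given as HBO2 in its labels and as HBO1 in its title, and it was treated as HBO1. A supplementary list of the peaks names WT cells, whereas the labels name Oct1 deficient ones, which were followed.

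HBO1 (Kat7) is the catalytic subunit of histone acetyltransferase complexes that act on histones H3 and H4. In the canonical Wnt pathway, a destruction complex built on the scaffolds Axin and Apc lets the kinases Gsk3a and Gsk3b mark β-catenin, the product of Ctnnb1, for degradation. When the kinases are inhibited, β-catenin accumulates and pairs in the nucleus with TCF/LEF factors, which bind the core sequence CTTTGAT or close variants of it. In mouse ESCs, blocking GSK3 sustains self-renewal, in part by relieving repression by Tcf7l1, the TCF factor known for holding down pluripotency genes.

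The authors deposited 1 peak list, which was read as the joint list of the ChIP samples, so the values have no spread between replicates, and no test was made. Each peak has a fold enrichment, the ratio of ChIP signal to local background at the summit, and a −log10 q, both computed by the authors' peak caller. ChIP reads were not analysed here. The input held 31973678 aligned read ends, which were counted in the 1 kb around a TSS or summit, with exact Poisson 95% intervals that cover counting error only. Of 8 ESC markers (Pou5f1, Sox2, Nanog, Klf4, Esrrb, Zfp42, Tdgf1 and Dppa5a), 8 had a peak within 1 kb of a TSS, as did 1 of 6 feeder fibroblast markers, Fn1, against 21.7% of all protein-coding genes. The feeder count is near that share, and peaks do not measure expression.

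A peak lay within 1 kb of a TSS at 6 of the 10 genes, against 21.7% of all protein-coding genes. These were Gsk3a, Gsk3b, Axin2, Apc, Ctnnb1 and Cdx1, which include every one of the 5 listed genes of the destruction complex and its substrate. The TCF/LEF factors Tcf7l1, Lef1 and Tcf7 and the target gene Sp5 had none. When peaks with over 10 input read ends around the summit were left out, the count was 0 of 10, against 1.72% of all genes. The peak held a TSS of the gene at 4 of 10 genes (Axin2, Apc, Ctnnb1 and Cdx1), against 10.9% of all genes. A peak lay in the gene body at 9 of 10 genes, against 28.2%, and in the body or within 50 kb at the same 9, against 62.0%, with Sp5 as the exception.

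Base composition moved with these counts. Among all protein-coding genes, genes were put into 10 classes by the highest GC content around a TSS, and a TSS peak was found at 59.6% of the top class, at 41.2% of the next and at 0.317% of the lowest. Of the 10 Wnt genes, 5 were in the top class (Axin2, Tcf7, Tcf7l1, Ctnnb1 and Cdx1) and 3 in the next (Gsk3a, Gsk3b and Apc). The shares of their GC classes added up to 4.67 genes, and the shares of their classes of input to 3.94 genes, beside the 6 observed. For peaks in the body, the shares of 5 classes of gene length added up to 3.62 genes, beside 9. Body peaks also rose with GC content, at 65.7% of all genes in the top GC class and 49.2% in the next. These body shares were not added up for the 10 genes. The part of base composition, input and gene length in these counts was not tested.

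**Figure D1:**
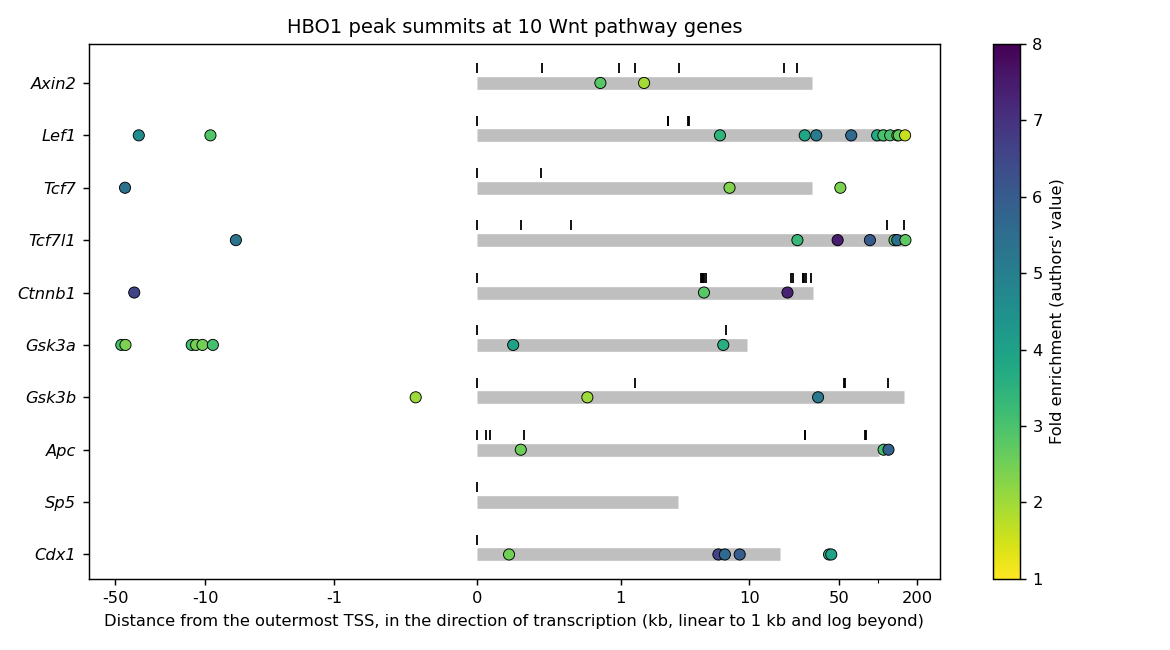
Summits of the 47 HBO1 peaks (circles, colored by the authors' fold enrichment) along each of the 10 genes, drawn in the direction of transcription from the outermost TSS, with the axis in kb, linear to 1 kb and logarithmic beyond. Gray bars are gene bodies and black ticks are TSSs. The rows of Axin2, Ctnnb1, Gsk3a, Gsk3b, Apc and Cdx1 have a circle next to a tick with an edge within 1 kb, and all circles at that distance are at 3.98 or below. The darkest circles, at Tcf7l1 (7.45) and Ctnnb1 (7.32), are in introns, the latter with an edge 1124 bp from a tick. Circles with an edge over 1 kb from every tick of their gene range from 1.60 to 7.45. Sp5 has no circle.

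The target of the inhibitor was described first. Gsk3a, on chromosome 7 from 25228258 to 25237851 on the minus strand, had a peak from 25237320 to 25237772, 79 bp from the TSS of its coding transcripts and with the summit in the coding part of exon 1. Its fold enrichment was 3.98 and its −log10 q was 23.2, the highest −log10 q of the 47 peaks, and rank 570 of all 13823. The input held 68 read ends around the summit. A second peak in the gene, with a fold enrichment of 3.58 at a −log10 q of 5.61, lay 196 bp from the start of a transcript with a retained intron. The other 6 peaks around Gsk3a were all upstream, and the gene with the nearest TSS was Erf, a transcriptional repressor of the ETS family, for 4 of them and Cic, another repressor, for 2. The highest of these fold enrichments were 3.17 and 3.08 near Erf and 3.09 at Cic, and the other 3 ran from 2.38 to 2.52. Gsk3a thus shared its neighborhood with other genes that had peaks of their own, so that the count of 8 peaks around it is not a count for Gsk3a alone.

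Gsk3b, the paralog of Gsk3a, spans 38089001 to 38246084 on chromosome 16, on the plus strand. It had 2 peaks near its start, and neither held the TSS. The first, at 38088223 to 38088661, ended 340 bp upstream of the TSS, with a fold enrichment of 2.06 at a −log10 q of 3.69. The second, at 38089599 to 38090105, had its summit in the UTR of exon 1, with a fold enrichment of 2.05 at a −log10 q of 6.43. Both fold enrichments were below the Gsk3a value of 3.98, while input around the summits was 81 and 93 read ends against 68. Whether the paralogs differ beyond the spread between samples cannot be said from 1 list. Intron 1 of Gsk3b held another peak, at 38122950 to 38123307, with a fold enrichment of 5.20, a −log10 q of 9.17 and 11 input read ends.

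Axin2 encodes a scaffold of the destruction complex and is itself a direct target of β-catenin and TCF/LEF factors, which makes it a feedback inhibitor and a common readout of the pathway. It spans 108920349 to 108950783 on chromosome 11, on the plus strand. The first of its 2 peaks, at 108920473 to 108921451, held the TSSs of 2 coding transcripts and had its summit in intron 1, 859 bp from the outermost TSS. Its fold enrichment was 2.85, its −log10 q was 15.7, and the input held 128 read ends (interval 107 to 152). The second, at 108921815 to 108922189, had a fold enrichment of 1.94 at a −log10 q of 3.64, among the lower values of the 47 peaks. No other peak lay in the body of Axin2 or within 50 kb of it.

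The first Axin2 peak was the only one of the 9 TSS peaks of these genes with the TCF/LEF core CTTTGAT, which was searched on both strands. Among all peaks within 1 kb of any TSS, 2.24% held it. The Axin2 peak was 979 bp wide, against a median of 428 bp for those peaks. The core was centered 27 bases from the summit, and 13 bases further on followed the variant CTTTGAA, which shares its first 6 letters and was searched after the first matches had been seen. The stretch of intron 1 with both, chr11:108921194-108921293 of GRCm38 on the plus strand, is shown because it places the textbook motif of the pathway at the summit of an HBO1 peak, with the cores in capitals.
Axin2 intron 1: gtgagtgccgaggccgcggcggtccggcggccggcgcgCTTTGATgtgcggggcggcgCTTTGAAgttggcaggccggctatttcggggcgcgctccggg
The 100 bases were 75% G and C. The whole peak held 3 matches to either form.

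Apc encodes the large scaffold of the destruction complex that is lost in most colorectal tumors. It spans 34220924 to 34322552 on chromosome 18, on the plus strand. Its TSS peak, at 34220961 to 34221547, held the starts of several transcripts and had its summit in coding sequence, with a fold enrichment of 2.57, a −log10 q of 10.1 and 82 input read ends. Downstream of the gene lay 2 peaks whose nearest TSS was that of Srp19, a subunit of the signal recognition particle. One held the Srp19 TSS and had a fold enrichment of 3.04 at a −log10 q of 9.92. The other, 9577 bp from it, had a fold enrichment of 5.83 at a −log10 q of 9.22, at an input of 8 read ends against 77.

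Input around the TSSs overlapped between the genes with a TSS peak and those without one. Highest input around a TSS was 198 read ends at Lef1 (interval 171 to 228), 155 at Tcf7l1 (132 to 181), 111 at Tcf7 (91.3 to 134) and 72 at Sp5 (56.3 to 90.7), the 4 genes without a TSS peak. At the 6 genes with one, it was 147 at Ctnnb1 (124 to 173), 136 at Axin2, 133 at Cdx1, 92 at Gsk3b, 81 at Apc and 68 at Gsk3a. Lef1 and Tcf7l1, without a TSS peak, were above all 6 genes with one, but Lef1 lies where the input was 2.49 times that of other autosomes after correction for GC content, and the intervals of Tcf7l1 and Ctnnb1 overlapped. The intervals of Sp5 and Gsk3a overlapped as well. Over all protein-coding genes the median of this value was 58, and it was 114 in the top class by GC content and 66 in the class that held Sp5. Over the 51 TSSs of all 10 genes, the 20 with a peak had a median input of 102 read ends, from 30 to 147, and the 31 without one had a median of 14, from 0 to 198. Windows of neighboring TSSs of a gene overlap and share read ends, so these medians weight genes by their annotated TSSs.

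**Figure D2:**
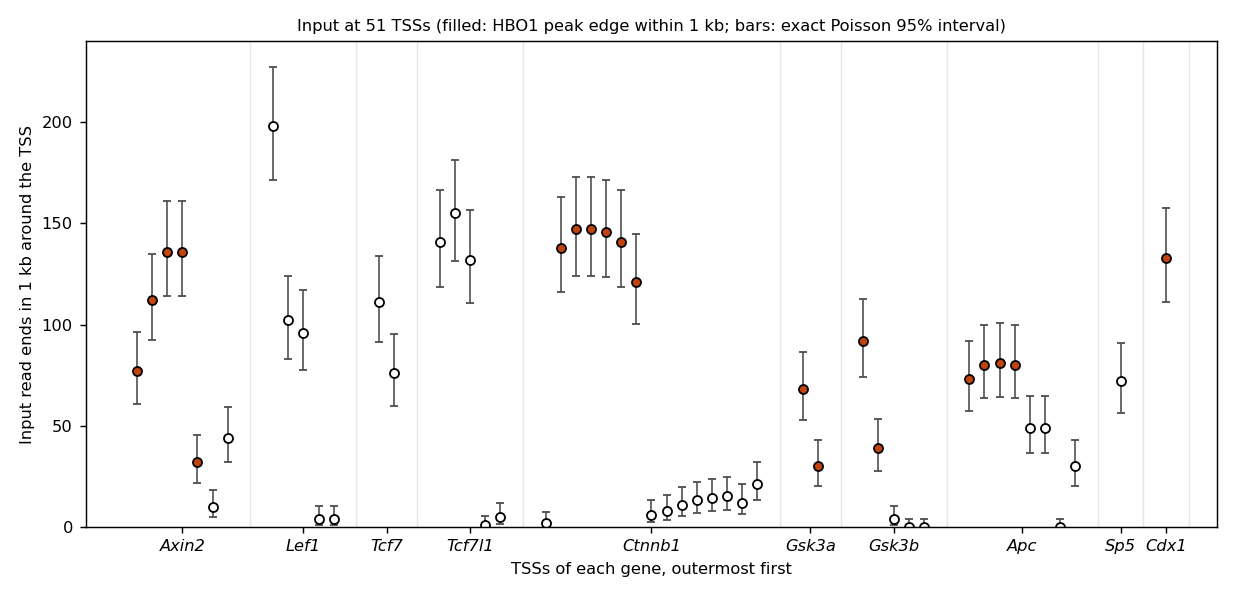
Input read ends in the 1 kb around each of the 51 TSSs, by gene and from the outermost TSS inward. Bars are exact Poisson 95% intervals, and filled circles have an HBO1 peak edge within 1 kb. Open circles at the coding TSSs of Lef1, Tcf7 and Tcf7l1 lie between 76 and 198 read ends, within the range of the filled ones (30 to 147) apart from 198 at Lef1, in a stretch of higher input, and 155 at Tcf7l1.

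Ctnnb1 encodes β-catenin, which the destruction complex marks for degradation and which carries the signal into the nucleus. It spans 120929216 to 120960507 on chromosome 9, on the plus strand. Its TSS peak, at 120933490 to 120934573, was 1084 bp wide, the widest of the 47 peaks, and had a fold enrichment of 2.84 at a −log10 q of 20.7 at 138 input read ends. The peak held 3 TSSs of a cluster and began 90 bp after the first TSS of that cluster. The outermost annotated TSS, which lay 4274 bp from the peak, had 2 input read ends and 42.7% GC.

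The other peaks of Ctnnb1 had a lower input and a higher enrichment. In intron 1 a peak at 120948796 to 120949097 had a fold enrichment of 7.32, rank 517 of 13823, and a −log10 q of 10.6 at 7 input read ends. Its edge was 1124 bp from the start of another transcript of Ctnnb1, just outside the limit of 1 kb. A peak 35535 bp upstream of the gene had a fold enrichment of 6.56 at a −log10 q of 8.99 at 6 input read ends, and the nearest TSS to it was that of Gm39460. The 200 bases around the intron 1 summit, chr9:120948849-120949048 of GRCm38 on the plus strand, are shown as one of the 2 most enriched sites of the set, with the 20 bases at the summit in capitals.
Ctnnb1 intron 1: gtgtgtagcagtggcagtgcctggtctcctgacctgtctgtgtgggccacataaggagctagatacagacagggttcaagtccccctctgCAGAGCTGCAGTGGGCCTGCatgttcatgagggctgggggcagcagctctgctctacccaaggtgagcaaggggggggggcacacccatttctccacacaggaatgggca
Neither CTTTGAT nor CTTTGAA was found in this peak.

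Tcf7l1 encodes the TCF factor that acts mainly as a repressor in ESCs, where it opposes pluripotency genes until β-catenin relieves it. It spans 72626378 to 72789254 on chromosome 6, on the minus strand. No peak lay within 1 kb of its 5 TSSs, the nearest being a peak at the far end of the gene, 3433 bp from the start of a noncoding transcript there. The peak nearest to the outermost TSS was 5628 bp upstream of it. Around the 3 coding TSSs of Tcf7l1 lay 132 to 155 input read ends, at 68.1 to 70.6% GC. In turn, its body held 6 peaks, of which 4 were in intron 3, and 1 more lay upstream.

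The intron 3 peak at 72740693 to 72741227 had a fold enrichment of 7.45, the highest of the 47 peaks and rank 485 of 13823, with a −log10 q of 13.6 at 9 input read ends. The other 4 intronic peaks of Tcf7l1 had fold enrichments of 6.04, 5.52, 3.32 and 2.73, the upstream peak had 5.30, and the peak in the UTR of the last exon had 2.74. Input around the 7 summits was low, from 2 to 26 read ends. The 200 bases around the leading summit, chr6:72740792-72740991 of GRCm38 on the minus strand, are given as the most enriched site of the set, with the 20 bases at the summit in capitals.
Tcf7l1 intron 3: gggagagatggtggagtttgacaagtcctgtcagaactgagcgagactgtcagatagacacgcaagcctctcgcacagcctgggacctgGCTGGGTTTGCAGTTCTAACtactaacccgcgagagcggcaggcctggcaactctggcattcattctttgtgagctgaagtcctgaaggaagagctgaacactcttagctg
Neither form of the TCF/LEF core was found in any of the 7 peaks of Tcf7l1.

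Lef1 encodes a TCF/LEF factor that acts mainly as an activator with β-catenin and is also a target of the pathway. It spans 131110471 to 131224356 on chromosome 3, on the plus strand. The gene lies in a stretch of this chromosome, from 100 to 140 Mb, in which the input, after correction for GC content, stood at 2.37 times the level of other autosomes, and in the 2 Mb around Lef1 itself the ratio was 2.49. The same ratio was 1.01 to 1.14 around the other 9 genes, and 95% of the 2-Mb windows of other autosomes had 0.732 to 1.19. Of the 10 genes, Lef1 alone was outside that range.

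Lef1 had no peak within 1 kb of a TSS, where 37.7% of the 273 protein-coding genes of the stretch had one. The nearest peak, with a fold enrichment of 3.43 at a −log10 q of 7.92, was 2438 bp from the start of a noncoding transcript in the gene and 5823 bp from the outermost TSS. By contrast, the body held 6 peaks and the flanks another 6, which gives 5.61 peaks per 100 kb. This was above the density of the whole stretch, 1.87 per 100 kb, and that of the rest of the genome, 0.487, and above the median over the genes of the stretch, 2.82, measured like that of Lef1. Over the body and flanks, 93.4% of the genes of the stretch had a peak, with a median of 4, and 15 of the 273 had 12 or more, as did 69 of the other 21665 protein-coding genes. The part of the higher input in the count at Lef1 was not tested.

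**Figure D3:**
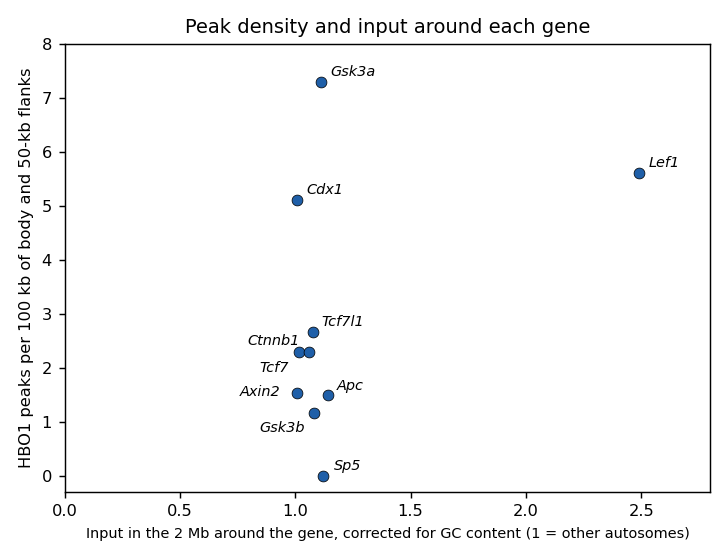
HBO1 peaks per 100 kb of gene body and 50-kb flanks of the 10 genes, against input in the 2 Mb around each gene corrected for GC content, where 1 is the level of the other autosomes. Lef1 stands apart at 2.49 on the horizontal axis with 5.61 peaks per 100 kb, while Gsk3a (7.30) and Cdx1 (5.11) have densities of that order at ratios of 1.11 and 1.01.

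The 5 most enriched Lef1 peaks had fold enrichments of 5.61, 5.08, 4.65, 3.85 and 3.78, and the other 7 ran from 1.60 to 3.43. The highest −log10 q at the gene, 13.5, belonged to the intron 3 peak at 131143320 to 131143605, with a fold enrichment of 5.08 and 26 input read ends. The peak at 131171864 to 131172239, also in intron 3, had a fold enrichment of 5.61, a −log10 q of 10.7 and 11 input read ends. One more peak in that intron, at 131137176 to 131137502, was weaker, with a fold enrichment of 3.85, a −log10 q of 4.50 and 8 input read ends, and lay 391 bp from the TSS of the noncoding gene Gm42449. Of the flanking peaks, those downstream were nearest to the TSS of Hadh, an enzyme of fatty acid oxidation. The farthest of them lay 107 bp from the Hadh TSS, with a fold enrichment of 1.60 at 195 input read ends. The count of 12 peaks around Lef1 is thus not a count for Lef1 alone.

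The TCF/LEF core was found in 2 Lef1 peaks, and with Axin2 these made 3 of the 47 peaks, against 2.60% of all HBO1 peaks. Of the 38 peaks over 1 kb from a TSS of their gene, 2 held it, against 2.84% of all peaks that far from any TSS. The 2 sets are unlike, because the 38 include peaks within 1 kb of a TSS of another gene. The Lef1 match in the peak 391 bp from the Gm42449 TSS would be outside the set behind the 2.84%. Both stretches, chr3:131137217-131137366 and chr3:131171864-131172163 of GRCm38 on the plus strand, are shown because they hold the sites where the pathway's motif meets an HBO1 peak in the gene of one of its own factors, with the cores in capitals. The first also overlaps an exon of the noncoding gene Gm42449.
Lef1 intron 3, first: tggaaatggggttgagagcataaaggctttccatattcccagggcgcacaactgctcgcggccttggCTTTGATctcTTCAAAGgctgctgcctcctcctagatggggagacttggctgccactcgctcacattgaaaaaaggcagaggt
Lef1 intron 3, second: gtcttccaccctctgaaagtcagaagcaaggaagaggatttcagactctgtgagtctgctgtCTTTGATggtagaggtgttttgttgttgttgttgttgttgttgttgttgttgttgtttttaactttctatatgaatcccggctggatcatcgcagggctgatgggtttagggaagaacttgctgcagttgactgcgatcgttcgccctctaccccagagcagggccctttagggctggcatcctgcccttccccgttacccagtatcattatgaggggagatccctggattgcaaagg
In the first, CTTTGAT is followed after 3 bases by CTTTGAA on the opposite strand, which reads TTCAAAG, and its center lay at −55 from the summit, where negative positions are before it. In the second, the core was centered at −182.

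With both forms of the core allowed, 4 of the 47 peaks (8.51%) had a match, against 7.78% of all peaks. The fourth was the upstream peak of Tcf7. Peaks with at least 2 matches numbered 2 of 47, at Axin2 and Lef1, against 52 of 13823 (0.376%). The Axin2 peak was 979 bp wide and the Lef1 peak 327 bp, against a median of 367 bp over all peaks. Peak width was not accounted for in these counts. This form of the count was chosen after the sequences had been seen, and a match is a description of letters, not a binding site.

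Tcf7 encodes a TCF factor that is likewise a target of the pathway. It spans 52252371 to 52283014 on chromosome 11, on the minus strand, and its 2 TSSs had 111 and 76 input read ends and 71.8 and 63.1% GC. The nearest peak was 6452 bp from a TSS. That peak, in intron 2 at 52275835 to 52276119, had a fold enrichment of 2.31 at a −log10 q of 2.69, the lowest −log10 q of the 47 peaks, and it held the TSS of the noncoding gene A630014C17Rik. Of the flanking peaks, one held the TSS of Skp1a, a ubiquitin ligase subunit, with a fold enrichment of 2.37 at a −log10 q of 9.40, and the other, 41875 bp upstream of Tcf7, was nearer to Vdac1, with a fold enrichment of 5.36 at a −log10 q of 8.56. No peak around Tcf7 was therefore near to a start of Tcf7 itself.

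Sp5 encodes a zinc finger factor of the Sp family and is a direct target of β-catenin and TCF/LEF factors in ESCs. It is the shortest of the 10 genes, from 70474923 to 70477729 on chromosome 2, on the plus strand. It was the only member with no HBO1 peak in the body or within 50 kb. The nearest peak was 74932 bp away, at 70399696 to 70399991, with a fold enrichment of 4.39 at a −log10 q of 3.98. The input held 72 read ends around the Sp5 TSS, with 58.2% GC.

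In RefSeq promoter windows of GRCm38.p6, from 250 bases before to 50 after a start, CTTTGAT was found at 1 of the 8 genes of the set that had an entry, which was Sp5, against 4.29% of the genes in that table. With CTTTGAA also allowed, Gsk3a had a match too, 2 of 8 against 9.88%. The 250 bases before the Sp5 TSS, chr2:70474673-70474922 on the plus strand, are shown with the core in capitals, which starts 104 bases before the TSS.
Sp5 promoter: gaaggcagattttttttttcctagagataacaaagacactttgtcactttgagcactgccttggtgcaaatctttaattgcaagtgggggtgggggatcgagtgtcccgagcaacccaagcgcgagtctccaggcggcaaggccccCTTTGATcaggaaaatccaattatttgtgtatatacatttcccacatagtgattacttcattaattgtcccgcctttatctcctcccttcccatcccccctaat
Here the core was present in the promoter of a textbook target and no HBO1 peak was listed. At Axin2 the core lay within the peak but in intron 1, outside the promoter window, so the places are unlike. Gsk3a, with the variant in its window, had a TSS peak. In the windows of the other 6 matched genes neither form was found.

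Cdx1 encodes a homeobox factor of the caudal family that patterns the posterior embryo and is a known target of Wnt signals. It spans 61018862 to 61036199 on chromosome 18, on the minus strand. Its TSS peak, at 61035634 to 61036267, had its summit in the coding part of exon 1, with a fold enrichment of 2.51, a −log10 q of 12.4 and 127 input read ends. Intron 1 of Cdx1 held 3 further peaks at 5519, 6291 and 8176 bp from the TSS. Their fold enrichments were 6.58, 5.61 and 5.93, their −log10 q were 11.4, 7.48 and 7.50, and 6, 4 and 4 input read ends lay around their summits. Farther downstream, 2 peaks with fold enrichments of 3.43 and 3.97 had Slc6a7, a proline transporter, as the gene with the nearest TSS. Cdx1 was thus the gene of the set with both a TSS peak and a group of close intronic peaks.

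The 9 peaks within 1 kb of a TSS of their gene overlapped in fold enrichment with the other 38 and had a lower median. TSS peaks had fold enrichments from 1.94 to 3.98, with a median of 2.57, and a median −log10 q of 10.1 at a median input of 93 read ends and 71.7% GC. The other 38 had fold enrichments from 1.60 to 7.45, with a median of 3.43 at a median input of 20 read ends, and the 18 of them in gene bodies had 5.14 at 11 read ends and 55.9% GC. The whole list had the same order, with a median fold enrichment of 2.69 at 79 input read ends for peaks within 1 kb of any TSS. Those farther away had 4.68 at 10 read ends. The whole list was split by any TSS, whereas the 38 include peaks within 1 kb of a TSS of another gene. Differences in fold enrichment between places thus moved with the input, and the part of the input in them was not tested. Of the 21 flanking peaks, 17 were nearest to a TSS of another gene, and 5 held one.

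**Figure D4:**
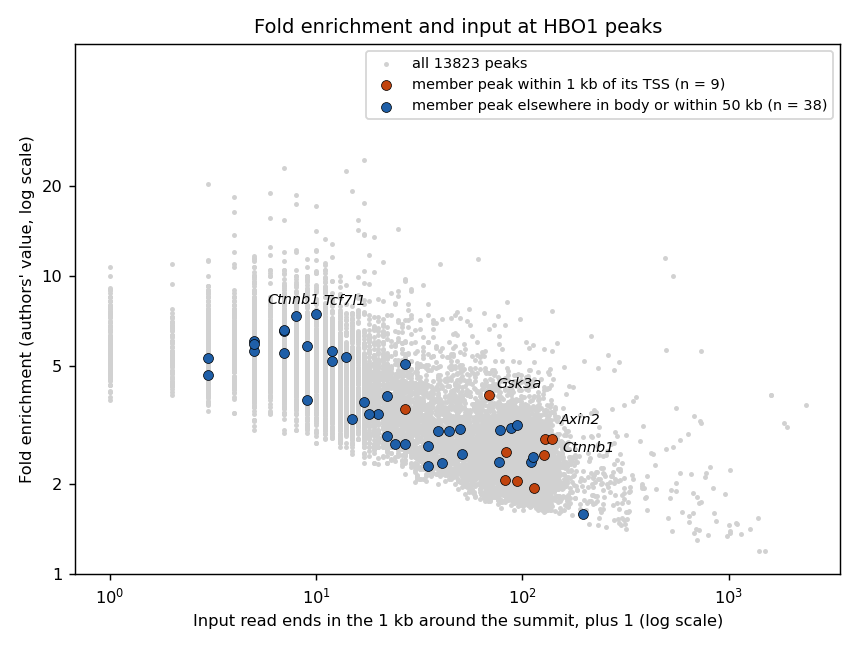
Fold enrichment of each HBO1 peak against input read ends in the 1 kb around its summit, plus 1, both on log scales. Gray points are all 13823 peaks, orange circles the 9 peaks within 1 kb of a TSS of one of the 10 genes and blue circles their other 38 peaks. The orange circles lie at fold enrichments from 1.94 to 3.98, and the named peaks of Tcf7l1 (7.45) and Ctnnb1 (7.32) lie at 9 and 7 input read ends.

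The same question was asked of 107 genes of the pathway in 8 lists by role, which include the 10. A TSS peak was found at 37 of the 107, which is 34.6% against the 21.7% of all genes. The GC classes of the 107 added up to 39.8, and their classes of input to 34.8. Without the 10 genes the count was 31 of 97, beside 35.1 from GC content and 30.9 from input. The count of 37 was 18 when only peaks with −log10 q of 10 or more were kept, against 7.97% of all genes. It was 1, Porcn, without peaks of over 10 input read ends around the summit, against 1.72% of all genes, so the counts by list rest on peaks above that input. The lists differed widely, and a share near that of the GC classes is no result about a list. They were fixed with earlier results of these data known, so their counts are descriptions and none was tested.

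Of the 23 ligands, Wnt and R-spondin genes, none had a TSS peak, where their GC classes added up to 8.42. Among the 15 inhibitors outside the cell and at the membrane, 1 had one, Sfrp1, which is 6.67%, where the mean share of their GC classes was 26.7%. Of 18 transcriptional targets, 3 had one, which were Axin2, Cdx1 and Mixl1, an early mesendoderm factor, beside 6.14. Sp5, Lef1 and Tcf7 were thus among the 15 listed targets without a TSS peak.

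By contrast, 14 of the 20 cytoplasmic transducers and destruction complex genes had a TSS peak, beside 9.06. Those with the highest −log10 q were Gsk3a (23.2), Ctnnb1 (20.7), the signal relay Dvl3 (18.1, fold enrichment 3.72), Axin2 (15.7) and the priming kinase Csnk1a1 (13.4, fold enrichment 2.84). Gsk3a, Gsk3b, Axin2, Apc and Ctnnb1 are 5 of the 14. Of the 16 nuclear effectors, 7 had one, beside 7.40, led by the coactivator Pygo2 with a −log10 q of 19.0 and a fold enrichment of 3.39. Tcf7l2 was the only one of the 4 TCF/LEF genes with a TSS peak, with a fold enrichment of 2.74 at a −log10 q of 10.4. The acetyltransferases Ep300 and Crebbp, with −log10 q of 11.3 and 9.62, and the corepressor Tle4, with 9.19, followed.

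Among 15 receptors, 6 had a TSS peak, beside 6.23, and the leading ones were Fzd10 with a −log10 q of 16.3, Fzd5 with 8.42, Lgr4 with 8.21, Lrp6 with 6.58 and Fzd6 with 4.11. Of 3 genes of ligand processing, the lipase Notum and the acyltransferase Porcn had one, with −log10 q of 13.0 and 5.74. All 5 genes of a short list of pluripotency genes that Tcf7l1 represses had one, beside 0.993 from their GC classes. Nanog had a fold enrichment of 8.88 at a −log10 q of 54.4, and Klf2 had 5.72 and 69.1. Tfcp2l1 followed with 3.00 and 16.7, Esrrb with 3.51 and 9.15, and Nr0b1 with 2.47 and 4.05. These 5 genes are also ESC genes by other criteria, and 2 of them, Nanog and Esrrb, are among the ESC markers above, so nothing about Tcf7l1 was read from the count.

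**Figure D5:**
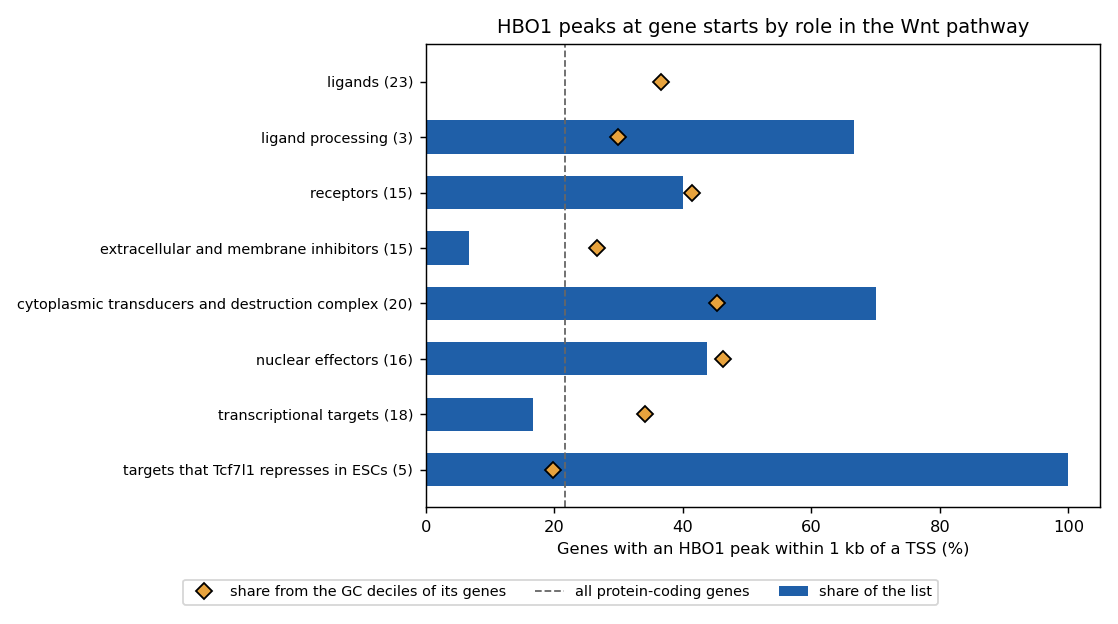
Share of the genes of each list with an HBO1 peak within 1 kb of a TSS (bars, in %, with the number of genes in brackets), beside the mean share of the GC classes of its genes (diamonds) and the 21.7% of all protein-coding genes (dashed line). The bar is above the diamond for the cytoplasmic list (70% against 45.3%), ligand processing and the genes Tcf7l1 represses, close to it for receptors and nuclear effectors, and below it for ligands (0%), inhibitors (6.67%) and targets (16.7%).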

How the data were processed

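HBO1 ChIP-seq of 2 ChIP samples and 1 input sample was analysed from the processed files. The submitters' processing notes name Novoalign 4.03.01, MACS2 and mm10. The deposited peak list gives a fold enrichment (a ratio to local background) and a −log10 q, both from the authors' peak caller, run at q 0.005. How the ChIP samples were combined is not given in the sources used here. A score column that the authors' caller derived from q was not used. The deposited input gives aligned read ends, with a mapping quality score from the authors' aligner and no normalization. The columns of the peak list were assigned to both ChIP samples together by the name of the list, which holds HBO1 and no single sample.

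A peak was assigned by its edges to any transcript TSS within 1 kb, to the gene body and to 50-kb flanks (GENCODE vM21, GRCm38). The midpoint of each input read end was counted. The input ratio used read ends of mapping quality of at least 20, GC classes of 2% and only windows between 30 and 65% GC that had 200 read ends or fewer. Python 3.11.15, numpy 2.4.6, pandas 2.3.3, scipy 1.17.1, pysam 0.24.0 and matplotlib 3.10.9 were used, and the counting was tested on simulated data. Members and lists were chosen with earlier results of these data known. Each member was named with up to 5 peaks of highest fold enrichment, its peaks at and nearest to a TSS and a count of the rest, pathway genes by the 5 highest −log10 q of a TSS peak in each list, and flanking peaks by the gene of the nearest TSS. Alternatives varied the −log10 q, the distance, the TSSs, the input filter and the motif window. With 1 list and no replicate values, no p-value was computed. Sequences of promoters came from RefSeq (GRCm38.p6), where 8 of the 10 genes had an entry.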

Additional observations from a re-analysis of the deposited data

How the results depend on the processing

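The count of genes with a TSS peak was 4 to 6 of 10 under the other peak thresholds, distances and choices of TSS tried (7.97 to 22.9% of all protein-coding genes), but 0 when peaks with over 10 input read ends around the summit were left out, which also left 1.72% of all protein-coding genes. The same filter, added after seeing the data, left 1 of the 37 pathway genes, Porcn, and a −log10 q of at least 10 left 18 (7.97% of all genes). At that −log10 q the TSS peaks of Gsk3b were lost, and the median distance from a TSS to the nearest peak over the 10 genes was 14772 bp instead of 131. Counts of genes with a peak in the body were 7 to 9 of 10, against 9.43 to 28.2% of all genes, and 8 of 9 without Lef1. Body peaks over 1 kb from a TSS were found at 6 of 10, for which no share of all genes was computed. Counts for the body and flanks were 7 to 10 of 10, against 25.6 to 75.4%, the 10 at 100 kb. Without Lef1 that count was 8 of 9. The counts for the body and for the body and flanks stayed within 1.5 times, unlike those for TSS peaks under the input filter. The median input over the 51 TSSs was 68 read ends per kb, 66 with the same start, end and strand counted once, and 44.5 in windows of 2 kb. In a window of 300 bp centered on the summit, the TCF/LEF core was in 2 of the 47 peaks, against 1.87% of all peaks. No paired analysis was possible because the values come from no test and the files used here hold 1 peak list for both ChIP samples, whose reads were not analysed here. No sample was left out in turn for the same reason. At 0 read ends, the input allows up to 3.69 by the Poisson interval.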

Other observations

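Other sequence cores known from ESC factors were searched in the 47 peaks around the Wnt genes, on both strands and after the TCF/LEF matches had been seen. The octamer ATGCAAAT, a site of Oct4, was in none of the 47, against 0.622% of all HBO1 peaks. The SOX core CATTGTT was in 3 of 47, against 2.43%, and these were the upstream peak of Tcf7l1, the intron 1 peak of Ctnnb1 and the more distant peak near Srp19 downstream of Apc. The Esrrb core AAGGTCA was in 2 of 47, against 5.19%, and these were the intron 2 peak of Tcf7 and the peak at the Erf TSS near Gsk3a. None of these counts was tested.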
